A study of Mus musculus with 2 samples.

Results

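The 29 genes described here encode the machinery of glutamate signalling: the AMPA, kainate, NMDA, delta and metabotropic receptors, the vesicular glutamate transporters, the glutaminase Gls2 and the AMPA receptor auxiliary subunit Cacng2 (stargazin). They were taken by symbol from the 55536 genes of the GENCODE M21 gene tables, and all 29 were found with 1 identifier each. The tissue was neural tube from B6NCrl mice at embryonic day 12.5, with both sexes mixed in each pool. Both libraries belong to 1 group, with no treatment named in the labels, so no condition can be compared, and replicate 1 pooled 120 embryos while replicate 2 pooled 88. PolyA RNA was primed with oligo-dT from 10 ng of total RNA, and no step named in the labels keeps the strand of a read.

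Glutamate is the main excitatory transmitter of the spinal cord. A vesicular transporter loads it into synaptic vesicles, AMPA and kainate receptors open within milliseconds of its release, NMDA receptors need a co-agonist and the relief of a magnesium block, and metabotropic receptors act through G proteins. AMPA receptors are tetramers of GluA1 to GluA4, and every NMDA receptor contains GluN1. Each AMPA subunit gene carries a pair of mutually exclusive exons, flip and flop, which set how fast the channel desensitises, and flip is the form known to prevail before birth.

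The libraries held 33529531 and 35461403 estimated counts, of which 2.99% and 2.89% were spike-in RNA. The 29 genes together received 16139 and 17162 counts, which is 0.0496% and 0.0498% of the counts on named genes. The neural label was met by its markers: the 8 neural progenitor genes summed to 2828 and 2915 TPM (counts normalised for transcript length and library total), and the 10 pan-neuronal genes to 2359 and 2615 TPM. The forebrain marker Nkx2-1 was listed at 0 TPM in both libraries, whereas Neurod6 stood at 26.3 and 25.2 TPM. RNA of other tissues was present, with 236 and 167 TPM for 5 muscle genes and 6479 and 6410 TPM for 4 erythroid genes. In such bulk tissue, fewer cells of a type and less RNA per cell cannot be told apart.

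The flip and flop exons of the most abundant AMPA subunit gene, Gria2, are shown because the transcript results turn on them. Both are 115 bases long and lie on the minus strand of chromosome 3 in GRCm38 (mm10), flop at chr3:80691320-80691434 and flip at chr3:80690404-80690518, so that flop comes first in the transcript's direction. In all 4 genes flip and flop were told apart by a short residue pattern, particular to each form, in the translated exon. The sequences are from the GENCODE M21 transcripts, 5′ to 3′, with capitals at the 36 bases where the pair differ.
Gria2 flip: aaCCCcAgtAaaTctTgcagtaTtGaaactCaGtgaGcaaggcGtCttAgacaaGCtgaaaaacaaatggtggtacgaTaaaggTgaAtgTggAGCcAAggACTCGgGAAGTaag
Gria2 flop: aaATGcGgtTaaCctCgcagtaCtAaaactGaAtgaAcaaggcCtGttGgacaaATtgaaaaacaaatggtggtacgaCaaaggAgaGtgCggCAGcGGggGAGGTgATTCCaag
A central stretch of the pair is the same, and the differences crowd at the 3′ end. Flip and flop were 68.7% identical in Gria1 and Gria2, 72.2% in Gria3 and 73.0% in Gria4. The same exon was closer between genes than the 2 exons were within a gene: flip of Gria2 matched flip of Gria3 at 92.2% of bases, and flop of Gria3 matched flop of Gria4 at 94.8%.

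Of the 29 genes, 24 were at or above 1 TPM in both libraries (82.8%), compared with 13414 of 22028 protein-coding genes (60.9%). Their levels were low: the median of those 24 was 4.61 ± 0.127 TPM (SD, n = 2), against 21.7 ± 0.456 TPM for all protein-coding genes above the same level. Only 6 reached 10 TPM in both libraries (20.7%), compared with 9185 of 22028 protein-coding genes (41.7%). The genes below 1 TPM in at least 1 library were Grin2c, Grin3b, Grm6, Slc17a8 and Gls2. At this depth 3 counts on a transcript of 1 kb amount to 0.143 and 0.138 TPM. All annotated transcripts of Slc17a8 and Grm6 are longer than 1 kb, where 3 counts amount to less. Slc17a8 had 10 and 12 counts, and Grm6 2 and 4.

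**Figure D1:**
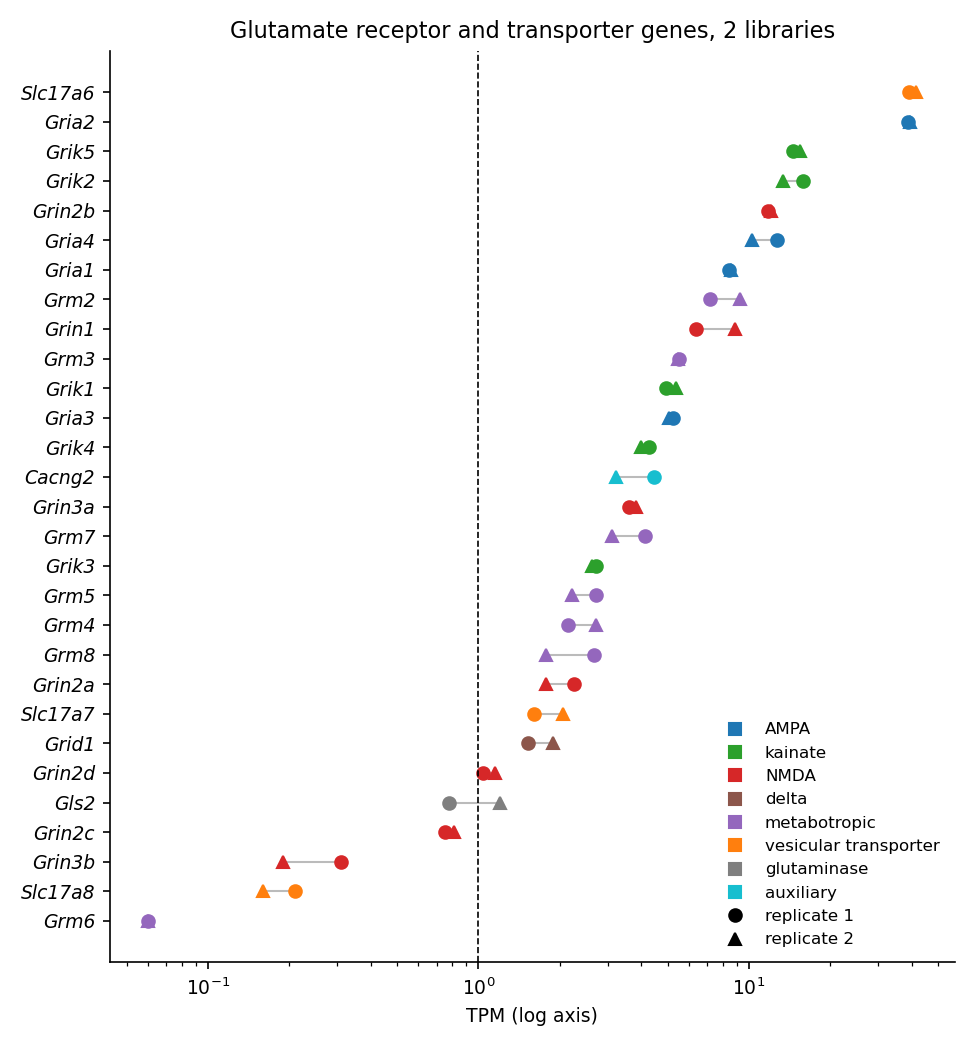
TPM of each gene (log axis) in replicate 1 (circles) and replicate 2 (triangles), coloured by gene class, with a dashed line at 1 TPM. Slc17a6 and Gria2 stand near 40 TPM, apart from all other members, and 4 genes lie below the line in both libraries, with Gls2 on either side of it.

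The vesicular transporters were represented almost wholly by 1 gene. Slc17a6 (VGLUT2), at chr7:51622006-51671119 on the plus strand, measured 39.1 TPM in replicate 1 and 41.6 TPM in replicate 2, the highest mean of the 29 genes (40.3 ± 1.77 TPM). Slc17a7 (VGLUT1) measured 1.60 and 2.05 TPM, and Slc17a8 (VGLUT3) 0.21 and 0.16 TPM on 10 and 12 counts. Slc17a6 exceeded the sum of the other two by 4.33 ± 0.14 on the log2 scale (n = 2). Its full-length transcript Slc17a6-201 made up 89.8% and 92.7% of the gene's TPM.

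The 4 AMPA receptor genes summed to 65.1 and 63.4 TPM, the highest sum of any receptor class. Gria2, whose edited subunit keeps calcium out of the channel, measured 38.6 and 39.5 TPM and supplied 60.8% ± 2.03 of that sum. Its values overlapped those of Slc17a6. Gria4 measured 12.7 and 10.3 TPM, Gria1 8.47 and 8.62 TPM, and Gria3 5.24 and 5.05 TPM. All 3 lay below Gria2 in both libraries, and the libraries' ranges of the 4 genes did not overlap.

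The kainate receptor genes summed to 42.4 and 40.8 TPM and were spread more evenly. Grik5 (GluK5), which forms channels only together with GluK1 to GluK3, measured 14.6 and 15.4 TPM. Grik2 (GluK2), a principal pore-forming subunit, measured 15.9 and 13.4 TPM, so the order of these 2 genes differed between the libraries. Grik1 followed at 4.95 and 5.36 TPM, Grik4 at 4.28 and 3.99 TPM, and Grik3 at 2.73 and 2.64 TPM. The pore-forming GluK1 to GluK3 genes exceeded Grik4 and Grik5 together by 0.23 ± 0.13 on the log2 scale.

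The NMDA receptor genes summed to 26.1 and 28.8 TPM. Grin1, the subunit common to all NMDA receptors, measured 6.37 and 8.90 TPM. Among its glutamate-binding partners Grin2b measured 11.8 and 12.1 TPM, Grin2a 2.25 and 1.78 TPM, Grin2d 1.04 and 1.15 TPM, and Grin2c 0.75 and 0.81 TPM. Grin2b is known as the embryonic partner and Grin2a as one that rises after birth. Grin2b exceeded Grin2a by 2.58 ± 0.27 on the log2 scale, and by 2.34 ± 0.11 when only transcripts with a full-length coding sequence were counted. Grin3a, a glycine-binding subunit that lowers calcium entry, measured 3.60 and 3.83 TPM, and Grin3b 0.31 and 0.19 TPM. Grin3b shares 32.1% of its exon bases with Tmem259 on the opposite strand, which measured 20.6 and 21.8 TPM, and Grin2d shares 643 bases with the antisense gene Gm45441 at 1.30 and 1.36 TPM, so reads in those stretches cannot be told apart without strand. Grid1, a delta receptor that links synapses through cerebellins more than it conducts, measured 1.53 and 1.89 TPM.

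The 7 metabotropic receptor genes summed to 24.4 and 24.7 TPM, with no single gene above 10 TPM. The group II receptors, which lower cyclic AMP, came first: Grm2 measured 7.20 and 9.29 TPM and Grm3 5.50 and 5.46 TPM. The group III receptors Grm7 (4.13 and 3.13 TPM), Grm4 (2.14 and 2.71 TPM) and Grm8 (2.68 and 1.78 TPM) followed, and Grm6, best known from retinal bipolar cells, was at 0.06 TPM in both. Grm5, a group I receptor coupled to phospholipase C, measured 2.71 and 2.22 TPM. Group II exceeded group III by 0.72 ± 0.32 on the log2 scale.

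Within each library the AMPA sum exceeded the kainate sum by 0.63 ± 0.01 on the log2 scale, the NMDA sum by 1.23 ± 0.13 and the metabotropic sum by 1.39 ± 0.04 (n = 2 for each). The NMDA sum was below the kainate sum, at -0.60 ± 0.14. Each ratio had the same sign in both libraries and exceeded its own SD, but an exact permutation of signs over 2 libraries allows no p-value below 0.5. The lead of AMPA over kainate rested on Gria2: with the highest gene of each class left out, the ratio was -0.078.

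The gene totals include every annotated transcript, and for several members much of the total came from transcripts without a full-length coding sequence. A transcript was called full-length where it is annotated as protein coding and its coding sequence reaches 90% of the gene's longest. On full-length transcripts alone, AMPA summed to 31.4 ± 1.32 TPM, kainate to 25.1 ± 0.714 TPM, metabotropic to 16.9 ± 1.27 TPM and NMDA to 12.3 ± 1.48 TPM. The vesicular transporters, at 38.5 ± 2.79 TPM, then stood above every receptor class, whereas AMPA stood above them in the gene totals (64.2 ± 1.19 against 42.4 ± 2.06 TPM). This selection of transcripts was chosen after the values had been seen.

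**Figure D2:**
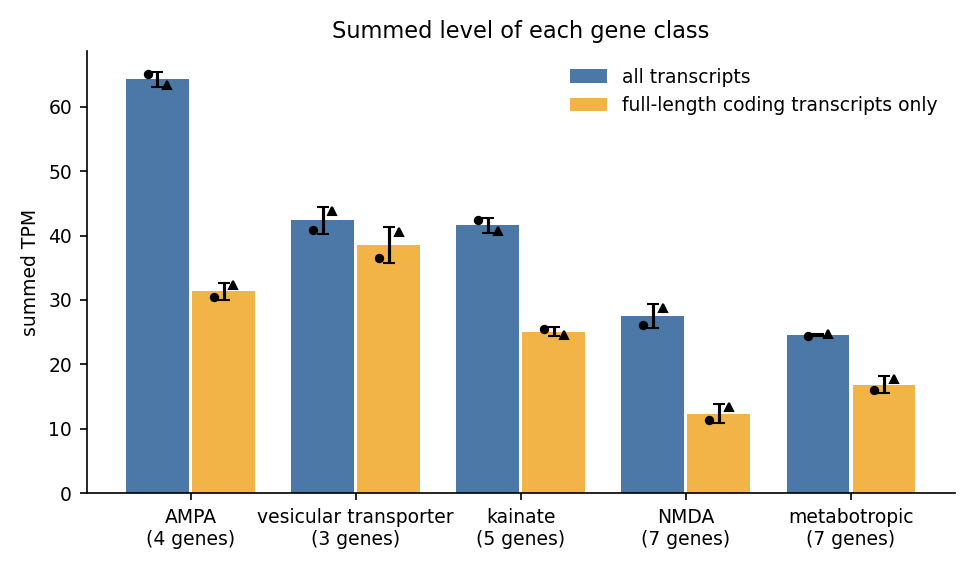
Summed TPM of 5 gene classes over all transcripts (blue) and over full-length coding transcripts only (yellow). Bars are means of the 2 libraries with SD, and symbols are replicate 1 (circles) and replicate 2 (triangles); AMPA falls from 64.2 to 31.4 TPM while the vesicular transporters stay near 40 TPM.

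Gria2 illustrates the difference. Its retained-intron transcript Gria2-206 took 37.1% of the gene's TPM in replicate 1 and 32.4% in replicate 2, and the coding transcript Gria2-202 took 31.1% and 33.4%. The leading transcript was therefore not the same in the 2 libraries. Gria2-206 rested on 1009 and 931 estimated counts with posterior SDs, the uncertainty of assigning reads among transcripts, of 38.5 and 44.0. Full-length Gria2 transcripts measured 15.0 and 16.2 TPM, about level with the other AMPA genes together: the log2 ratio was -0.017 ± 0.05, against 0.63 ± 0.12 from gene totals.

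Gria4 was led by a shortened coding transcript in both libraries. Gria4-203, 2338 bases long with a coding sequence of 1299 bases against 2706 in the full-length forms, took 73.3% and 67.0% of the gene's TPM. The full-length Gria4-202 took 19.6% and 22.5%. Full-length Gria4 measured 3.41 and 3.39 TPM, closer between libraries than the gene total. For the other AMPA genes the leader was full-length in both libraries, with 80.3% and 80.9% for Gria1-201 and 73.3% and 70.6% for Gria3-201.

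In Grin2b most of the gene total lay outside the full-length transcripts. Its leading transcript Grin2b-207 is a processed transcript of 241 bases that took 51.6% and 60.6% of the TPM on 18.1 and 22.6 counts, because TPM divides counts by a very short effective length. The 2 full-length transcripts held 15.0% and 15.8% of the TPM, or 1.77 and 1.92 TPM. The order of Grin2b and Grin1 depended on this: Grin2b over Grin1 was 0.67 ± 0.31 on the log2 scale from gene totals and -1.58 ± 0.20 from full-length transcripts. The 4 GluN2 genes together stood above Grin1 by 1.07 ± 0.34 from gene totals and below it, at -0.47 ± 0.19, from full-length transcripts.

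The remaining abundant members fell between these patterns. Grm2 was split between the full-length Grm2-201 (43.5% and 51.7%) and the shorter coding Grm2-203 (55.5% and 48.3%), and the leader changed between libraries. Grik5-201 held 44.1% and 45.9%, with most of the rest in retained-intron and nonsense-mediated decay transcripts. Grik2-202 held 30.4% and 49.6%, beside the shortened Grik2-210 at 29.2% and 26.6%. Grik1-201 held 42.5% and 19.7%, and Grik1-202 replaced it as leader in replicate 2. Grm3 has 1 annotated transcript.

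Of the 24 members at or above 1 TPM, 5 were led by a transcript without a full-length coding sequence (Gria2, Gria4, Grin2a, Grin2b and Grm2), and 19 had the same leader in both libraries. Grin2a was named here after its values were seen: Grin2a-203, a retained-intron transcript, took 42.1% and 52.6% of its TPM on 20.0 and 20.5 counts. Ranked by estimated counts, which do not divide by length, only 1 member (Gria4) was led by such a transcript.

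**Figure D3:**
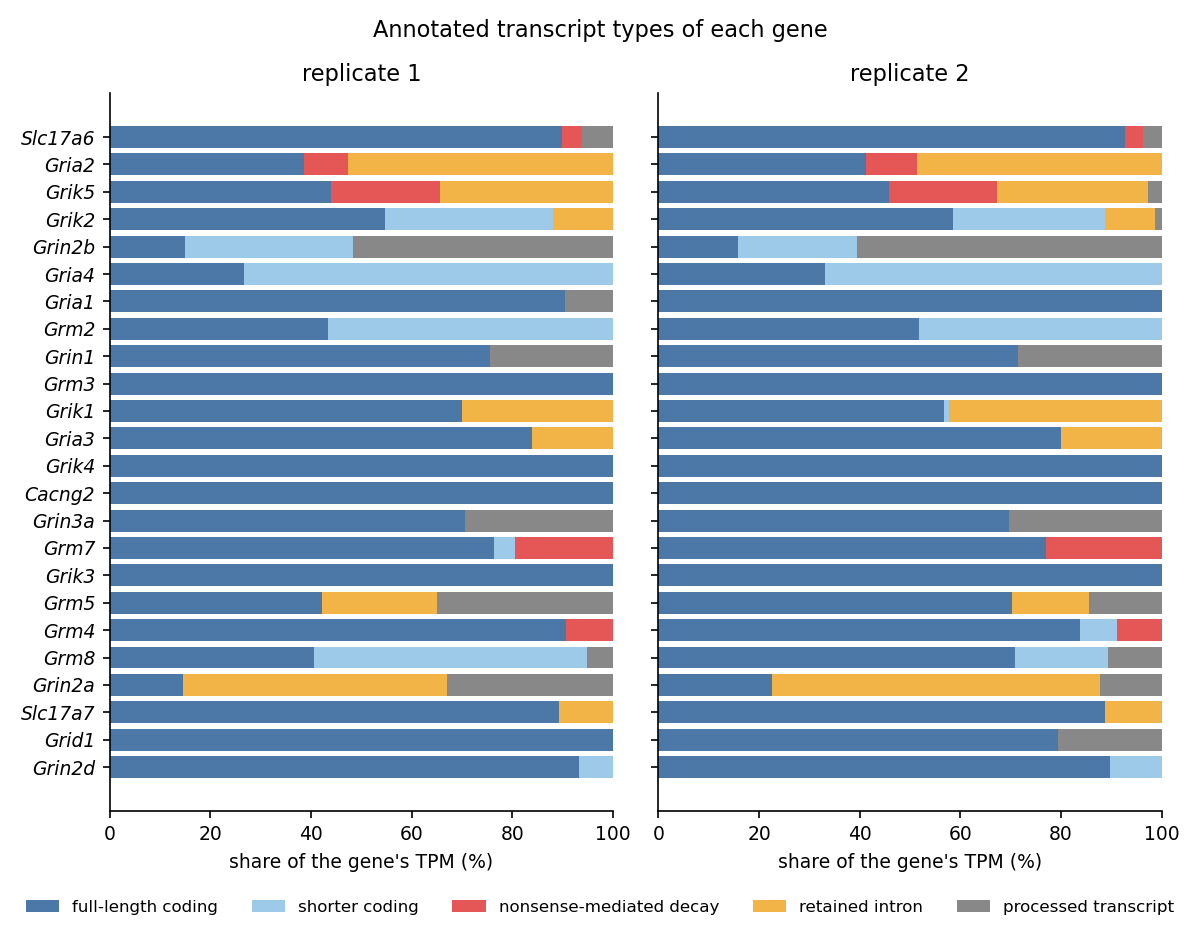
Share of each gene's TPM (%) held by full-length coding, shorter coding, nonsense-mediated decay, retained-intron and processed transcripts, for the 24 genes at or above 1 TPM, in replicate 1 (left) and replicate 2 (right). Slc17a6, Gria1, Grik3, Grik4, Grm3 and Cacng2 are mostly or wholly full-length, whereas full-length transcripts are the minor part of Gria2, Gria4, Grik5, Grin2a and Grin2b in both libraries.

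Flip exceeded flop in all 4 AMPA genes and both libraries. The flip share, the TPM of transcripts with flip over that of transcripts with either exon but not both, was 88.7% and 80.9% in Gria1, 80.4% and 81.2% in Gria2, and 87.3% and 88.1% in Gria3. In Gria4 it was 73.3% and 68.1%, below the other 3 genes in both libraries, but this order depended on the setting. With the M4 annotation the Gria4 share was 77.8% and 100%, the lowest in replicate 1 only. The transcripts in the ratio held only 38.7% and 41.2% of the TPM of Gria2, and 26.8% and 33.0% of that of Gria4. The transcripts differ outside the exon too: the flop transcript Gria2-201 is 10371 bases long and the flip transcript Gria2-202 4026. By estimated counts the Gria2 flip share was 61.1% and 62.3%, below that of Gria4 (73.7% and 68.8%). The assignment was less certain for the minor forms, as in Gria1-202 (flop) with 96.3 and 189 counts and posterior SDs of 47.6 and 46.9. The exon shares were chosen for description after the transcript tables had been seen.

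Grin1 has a cassette exon near its amino terminus, N1, which changes the receptor's response to protons and polyamines, and a cassette in the cytoplasmic tail, C1, which carries an endoplasmic reticulum retention signal. Both lie on the minus strand of chromosome 2, N1 with 63 bases at chr2:25311343-25311405 and C1 with 111 bases at chr2:25294438-25294548. Their sequences show what a transcript gains by inclusion.
Grin1 N1: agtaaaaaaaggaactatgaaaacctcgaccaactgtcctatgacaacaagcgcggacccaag
Grin1 C1: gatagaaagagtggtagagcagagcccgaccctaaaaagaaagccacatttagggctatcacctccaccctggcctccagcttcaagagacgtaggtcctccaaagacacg
Transcripts with N1 held 33.9% and 37.6% of the TPM of those that include or skip it. Transcripts with C1 held 0% and 8.54%, on 0 and 56.3 counts. The 4 transcripts with C1 had posterior SDs of 14.9 to 19.2 counts each in replicate 1, so the 0 there does not show that C1 was absent. The single transcripts were much less stable: Grin1-205, which lacks both cassettes, held 46.0% and 13.3% of the gene's TPM, Grin1-203 25.7% and 0%, and Grin1-207 0.01% and 26.9%. The sum over N1 transcripts thus varied less between libraries than its parts did. In Grm5, chosen after its values were seen, the transcript with a further coding exon of 96 bases (Grm5-204) received 0 counts in both libraries, with posterior SDs of 3.74 and 4.89 counts.

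**Figure D4:**
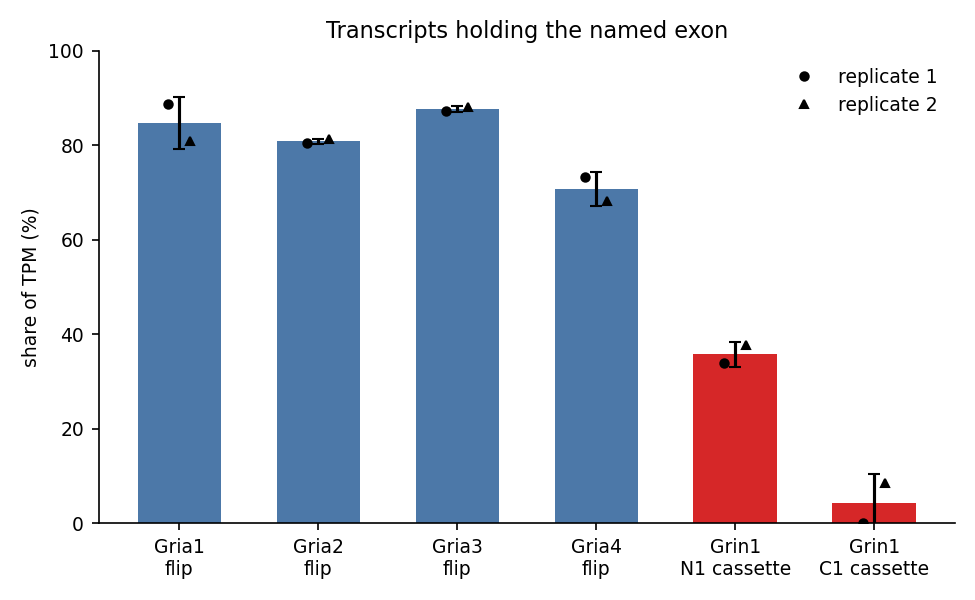
Share of TPM (%) of transcripts holding flip in the 4 AMPA genes (blue) and the N1 or C1 cassette in Grin1 (red). Only transcripts assigned to 1 of the 2 forms, with or without the named exon, are counted. Bars are means of the 2 libraries with SD, circles replicate 1 and triangles replicate 2; flip is above 68% in every gene and library, N1 stands at 33.9% and 37.6%, and C1 at 0% and 8.54%.

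The 2 libraries were then compared gene by gene, which describes these libraries and has no replicate check. Counts were set against library sizes scaled by TMM in a two-sided exact binomial test over 20125 genes, of which 20.3% were called at a Benjamini-Hochberg adjusted p below 0.05, 10.5% higher and 9.78% lower in replicate 2. Of the 28 members with enough counts, 4 were called, 2 in each direction, and the median log2 ratio of replicate 2 over replicate 1 was 0.01, against -0.00093 over all genes. Grm6, with 2 and 4 counts, was not tested. The members' share was not above that of all genes.

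Higher in replicate 2 were Grm2 and Grin1. Grm2, at chr9:106643095-106656082, had 474 and 676 counts, a log2 ratio of 0.42 (95% counting interval 0.25 to 0.60, adjusted p = 2.05e-05 in the exact binomial test). Grin1, at chr2:25291181-25319187, had 437 and 594 counts, a log2 ratio of 0.35 (0.17 to 0.54, adjusted p = 0.00118 in the same exact test). Both genes share exon bases with a gene on the opposite strand, and without strand the reads cannot be told apart. For Grin1 this was Grin1os, over 1307 bases and at 0.10 and 0.27 TPM, and for Grm2 it was Gm28111, over 470 bases and at 0 and 0.15 TPM.

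Lower in replicate 2 were Cacng2 and Gria4. Cacng2, at chr15:77991748-78120028, had 504 and 378 counts, a log2 ratio of -0.50 (-0.70 to -0.31, adjusted p = 7.00e-06 in the exact binomial test). Gria4, at chr9:4417896-4796234, had 810 and 716 counts, a log2 ratio of -0.27 (-0.41 to -0.12, adjusted p = 0.00334 in the same exact test). Cacng2 shares 323 exon bases with the antisense gene A730060N03Rik, which had 17.1 and 13.5 counts. For Slc17a6 and Gria2, with the most counts, the intervals were narrow: 0.01 to 0.16 and -0.10 to 0.04. With a dispersion common to all genes (estimated from both libraries as 1 group, a biological coefficient of variation of 7.16%), the edgeR exact test called 0 of the 28 members and 1.18% of all genes. Of the members, 3 had an unadjusted p below 0.05 in it, and the lowest adjusted p was 0.189, for Cacng2.

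Marker genes of several cell types moved in the same comparison, in which 10.5% of all genes were called higher and 9.78% lower. All 10 sensory ganglion genes had a positive ratio and 7 were called higher in replicate 2, with sums of 294 and 413 TPM. All 5 muscle genes were called lower, with sums of 236 and 167 TPM. Of 5 inhibitory neuron genes all had a negative ratio and 2 were called lower (95.02 and 81.5 TPM). Of 7 motor neuron genes, Isl1 and Isl2 were called higher, and Mnx1, Lhx3, Chat and Slc18a3 lower. The motor neuron sum (204 and 250 TPM) held Isl1 at 105 and 148 TPM and Isl2 at 36.3 and 49.3 TPM. Of 10 excitatory spinal neuron genes 3 had a positive ratio and 7 a negative one. Their sum (196 and 228 TPM) held Pou4f1 at 90.8 and 114 TPM. Ratios were positive for 9 of 10 pan-neuronal genes and 5 of 7 Schwann cell and crest genes. They were negative for 6 of 8 neural progenitor genes and 4 of 6 housekeeping genes. The edgeR exact test called 4 sensory ganglion, 2 muscle, 0 inhibitory and 0 motor neuron genes, beside 1.18% of all genes. None of the marker sums was near 0, and their part in the differences of Grm2, Grin1, Cacng2 and Gria4 was not tested.

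**Figure D5:**
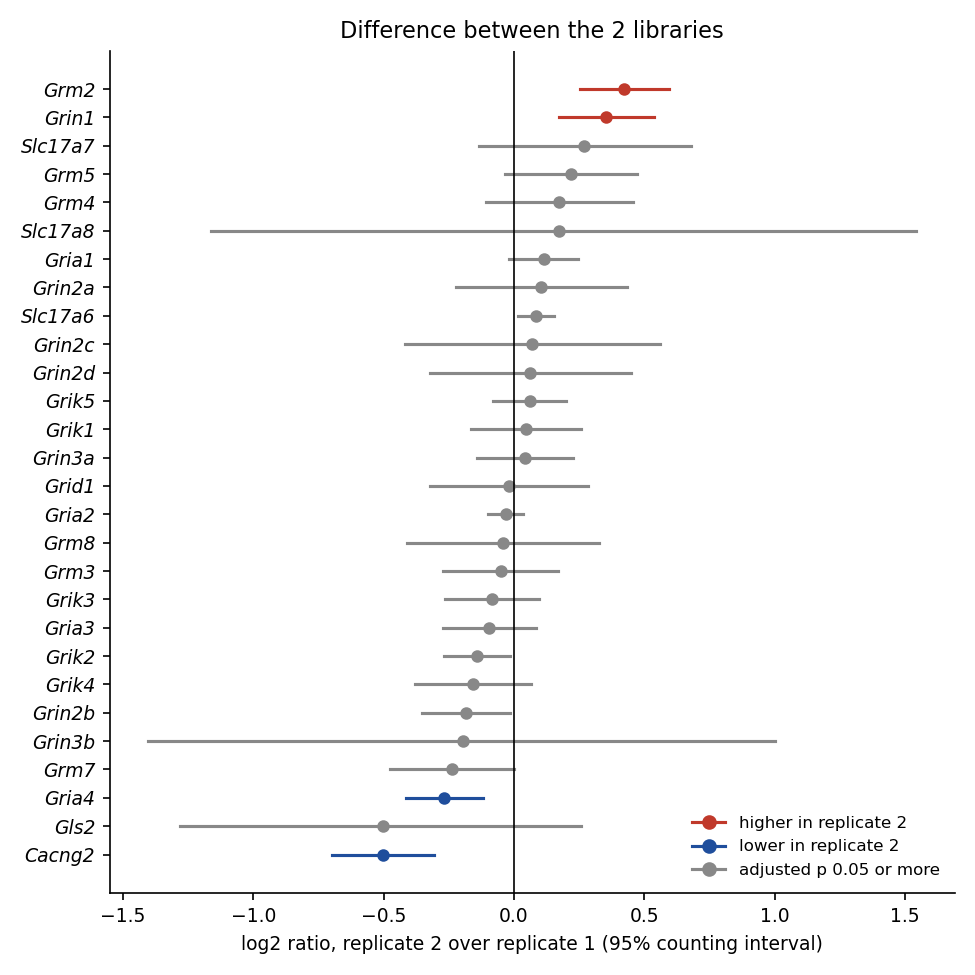
Log2 ratio of replicate 2 over replicate 1 for the 28 members tested, with 95% counting intervals. Red marks the 2 genes called higher in replicate 2, blue the 2 called lower, and grey those with an adjusted p of 0.05 or more; the intervals widen for genes with few counts such as Slc17a8 and Grin3b.

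The other genes of the pathway, 55 in all, covered synthesis, uptake, auxiliary subunits, scaffolds, editing enzymes and extracellular partners, and their median was 10.6 ± 0.332 TPM. The highest were Cnih2, an AMPA receptor export factor, at 185 and 182 TPM, and the scaffold gene Dlgap4 at 155 and 155 TPM. The transaminase gene Got2 measured 154 and 143 TPM, and glutamate dehydrogenase Glud1 74.9 and 84.6 TPM. The glutamine carriers Slc38a2 and Slc38a1 measured 128 and 139 TPM and 126 and 119 TPM. Glutamine synthetase Glul stood at 104 and 97.6 TPM, and the metabotropic receptor scaffold Homer3 at 73.8 and 78.6 TPM. These 8 genes, chosen as the highest of the 55, were all above the highest of the 29 receptor and transporter genes in both libraries.

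The glutaminase gene Gls2 measured 0.78 and 1.20 TPM and had no counts on a full-length coding transcript. Cacng2 measured 4.45 and 3.22 TPM beside Cacng4, a related auxiliary subunit, at 36.4 and 38.1 TPM. Of the 54 other pathway genes tested, 9 were called higher in replicate 2 and 7 lower by the exact binomial test, beside 10.5% and 9.78% of all genes. The edgeR exact test called 1 of the 54, Gsg1l (adjusted p = 0.049). Among the largest binomial calls were Slc1a6, a glutamate uptake carrier (log2 ratio 0.64), Gsg1l, an AMPA receptor auxiliary subunit (0.56), the extracellular Cbln4 (0.33) and the scaffold gene Dlgap1 (0.29). The scaffold gene Shank1 (-0.29) was called lower by the binomial test.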

How the data were processed

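PolyA RNA-seq libraries of 2 pools of E12.5 mouse neural tubes were analysed from the tables the authors deposited. These hold estimated counts, TPM, the percent of a gene's TPM held by each transcript and, as a score, the posterior SD of each count, as deposited on mm10 transcriptome alignments with GENCODE M21 and, separately, M4, per the deposited notes. The columns are those RSEM writes, per the file headers, and the aligner is not given in the sources used here. TPM depends on every annotated transcript of a gene and on effective length, so short transcripts weigh heavily.

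From these, sums, log2 ratios and mean ± SD over the 2 libraries were computed (Python 3.11.15, pandas 2.3.3). Estimated counts were rounded, genes with 10 or more in either library kept, and the exact binomial test (scipy 1.17.1) run on TMM-scaled library sizes (edgeR 4.0.16, R 4.3.3), with exact Clopper-Pearson 95% intervals. The binomial and edgeR exact tests took the place of edgeR's quasi-likelihood test, since 1 library on each side leaves no residual spread. P-values therefore measure only these libraries. The test was checked on simulated data with counting error only, so that check does not cover any spread between pools. DESeq2 1.42.0 size factors, spike-in scaling, other count minimums and the M4 tables were alternatives. Spike-ins were left out of library sizes. No per-library column of other samples was present (0).

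All 29 members were named; of other pathway genes, the 8 highest and the 6 largest called ratios at a mean of 1 TPM or more; of transcripts, the leader and any at 20% or more in both libraries, for members at a mean of 5 TPM or more. Some genes these rules and lists hold are not reported here. The members and lists were chosen with earlier results of these data known. Whether the pools share litters or days was not stated.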

Additional observations from a re-analysis of the deposited data

How the results depend on the processing

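The AMPA over kainate log2 ratio was 0.96 from class medians, 0.97 with M4, 0.32 on full-length transcripts, 0.41 on all coding transcripts and reversed to -0.078 without the highest gene of each class. AMPA over NMDA was 2.32 from medians, 1.53 with M4 and 0.70 without the highest genes. AMPA over metabotropic was 1.88, 0.63 (without the highest genes), 0.90 (full-length) and 0.83 (coding). NMDA over kainate was -1.36, -0.78, -1.03 and -0.90 in the same order. Slc17a6 over the other 2 transporters was 5.33 from medians. That shift is fixed by arithmetic, because the median of 2 genes is their mean rather than their sum. Among ratios within a class, full-length transcripts reversed GluN2 over GluN1 (-0.47), Grin2b over Grin1 (-1.58) and, on the mean but in replicate 1 only, Gria2 over the other AMPA genes (-0.017). M4 reversed Grin2b over Grin1 on the mean (-0.15) but in replicate 2 only. The full-length and coding selections were chosen after seeing the data.

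A threshold of 5 TPM kept 11 members. Spike-in scaling, which moved the median of all genes to 0.06, called 4 members higher in replicate 2 (Gria1 and Slc17a6 added), and the edgeR exact test called 0 higher and 0 lower. DESeq2 size factors, count minimums of 1 and 50, and M4 each called 2 higher and 2 lower. Members led by a transcript without a full-length coding sequence numbered 1 by counts and 3 to 6 when 1 library was left out. The flip share was 61.7% by counts in Gria2, 92.5% by counts and 89.0% with M4 in Gria3, and 88.9% with M4 in Gria4. No paired analysis was possible because the 2 libraries form 1 group. Low counts limit Slc17a8, Grin3b, Grm6 and Gls2.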
